A study of Mus musculus with 2 samples.

Results

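Melanoma cells with a raised share of mitochondrial RNA were examined in single-cell RNA sequencing of small subcutaneous tumours grown from B16F10, a melanoma line of mouse origin. A cell was counted as a member when it had 200 to 5000 detected genes, when mitochondrial transcripts made up more than 7.5% and at most 15% of its unique molecular identifiers (UMIs, each marking 1 captured RNA molecule), when the 4 pigment cell genes Pmel, Dct, Mlana and Tyrp1 together gave at least 0.5% of its UMIs, and when it had no UMI of Ptprc, the pan-leukocyte gene that encodes CD45. Members were thus chosen by measured values, namely their mitochondrial share, gene number, pigment gene UMIs and Ptprc. These cells fell outside the filter of the study, which kept cells with at most 7.5% mitochondrial reads. In all, 1867 of the 11778 barcodes were members, 972 in the library from Atf4 WT/WT hosts and 895 in the library from Atf4 Δ/Δ hosts, out of 6514 cells that passed the melanoma gate at any mitochondrial share. They were set against the 3425 cells (1738 and 1687) that passed the same gate with 2 to 7.5% mitochondrial UMIs, called the lower class here. The members are called the high class.

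Both host groups carried Rosa26::CreERT2, a tamoxifen-activated Cre recombinase that is expressed throughout the body, and both were treated with tamoxifen. Atf4 WT/WT hosts had intact Atf4 alleles, whereas in Atf4 Δ/Δ hosts the floxed exons of Atf4, the transcription factor of the integrated stress response, were excised. Each genotype was represented by 1 library, prepared from 2 pooled tumours of male and female mice aged 11 weeks. The injected melanoma cells kept their own Atf4 in both groups, so the genotype concerned only the host cells around them. With 1 library per genotype and both classes taken from the same library, there were no replicates. Levels are given as CPM, the UMIs of a gene scaled to a common total of non-mitochondrial UMIs per class and library. Values are given for each library without a test, and every interval is a 95% interval that covers counting error only.

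Mitochondria carry a small circular genome that encodes 13 protein subunits of the oxidative phosphorylation (OXPHOS) complexes. All other subunits of these complexes, and the ribosomal proteins, import machinery and chaperones of the organelle, are encoded in the nucleus. In single-cell data a high mitochondrial share is commonly used to discard damaged cells, because a cell that has lost cytoplasmic RNA keeps transcripts enclosed in the organelle, but the share also differs between cell types with their respiratory activity. Pigment cells are rich in mitochondria, and MITF, the master regulator of the lineage, is known to drive Ppargc1a, which encodes the mitochondrial biogenesis coactivator PGC-1α.

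The sequences below were chosen because they lie upstream of the genes on which the results turn. Each is a stretch of 120 bases that ends at the base before an annotated transcription start, from RefSeq on GRCm38.p6, and is written 5′ to 3′ on the strand of the gene. Top2a, Prc1 and Ube2c, which act in mitosis, were lower in the high class. Capitals mark CCAAT boxes (CCAAT, or ATTGG on the other strand), bound by NF-Y, and cell cycle homology regions (TTTGAA, or TTCAAA), bound by the complexes that time mitotic genes. Prc1 is shown at the more downstream of its annotated starts. The stretch before its other start (chr7:80294331-80294450) held the CCAAT box but not the full TTTGAA.
Top2a, chr11:99024190-99024309, minus strand: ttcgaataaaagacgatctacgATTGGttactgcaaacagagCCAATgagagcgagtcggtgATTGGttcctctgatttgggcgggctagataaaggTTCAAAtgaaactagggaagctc
Prc1, chr7:80294356-80294475, plus strand: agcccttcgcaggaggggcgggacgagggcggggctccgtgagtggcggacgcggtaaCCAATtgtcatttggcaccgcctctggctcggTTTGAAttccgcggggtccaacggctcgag
Ube2c, chr2:164769809-164769928, plus strand: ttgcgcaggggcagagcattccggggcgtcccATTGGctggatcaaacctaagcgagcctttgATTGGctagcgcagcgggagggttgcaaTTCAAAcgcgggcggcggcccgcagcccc
Cdkn1a, Tyr and Kcnj13 were higher in the high class. Capitals in Cdkn1a, shown at the more upstream of its annotated starts, mark the paired ACATGT cores of a p53 response element, and those in Tyr mark the M-box letters TCATGTG that MITF recognises. In Kcnj13 the same M-box is read on the other strand, where it appears as CACATGA.
Cdkn1a, chr17:29090859-29090978, plus strand: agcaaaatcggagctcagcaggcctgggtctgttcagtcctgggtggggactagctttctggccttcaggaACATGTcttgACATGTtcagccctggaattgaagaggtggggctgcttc
Tyr, chr7:87493513-87493632, minus strand: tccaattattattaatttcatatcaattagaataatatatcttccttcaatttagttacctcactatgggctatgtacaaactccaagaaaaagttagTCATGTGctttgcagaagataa
Kcnj13, chr1:87394730-87394849, minus strand: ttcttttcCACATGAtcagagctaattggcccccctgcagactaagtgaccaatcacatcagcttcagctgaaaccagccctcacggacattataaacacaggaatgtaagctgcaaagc

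The libraries held 6304 barcodes and 38417113 UMIs (Atf4 WT/WT host) and 5474 barcodes and 38290024 UMIs (Atf4 Δ/Δ host), and 10 barcodes occurred in both libraries, 2 of them among the members. The study's limits on genes and mitochondrial share, applied here, left 3861 and 3557 cells, a recount that differs slightly from the paper's cell numbers. Another 2028 and 1857 cells with 200 to 5000 genes were above the mitochondrial limit. In cells with UMIs of Ptprc and of macrophage genes, which belong to the host, Atf4 was at 189 CPM (166 to 214) in the Atf4 WT/WT library and at 51.2 CPM (35.7 to 71.2) in the Atf4 Δ/Δ library. In members it was at 256 CPM (246 to 267) and 202 CPM (193 to 212). The targeted gene was thus lower in host cells of the Atf4 Δ/Δ library and still present in the melanoma cells of both.

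Members made up 35.4% (33.7 to 37.3, exact Clopper-Pearson interval) of the 2742 melanoma-gate cells with at most 15% mitochondrial UMIs in the Atf4 WT/WT library and 33.4% (31.6 to 35.2) of 2682 in the Atf4 Δ/Δ library. The intervals of these shares overlapped. Of all barcodes with the same range of mitochondrial UMIs and genes, of any cell type, 81.2% and 76.8% were in the melanoma gate. In the plot of mitochondrial shares, the main peak of each library lies at 6 to 6.5% (308 and 242 cells) and runs across the limit of 7.5% without a gap, so the classes are ranges of a continuous measure. The Atf4 Δ/Δ library had 40 further gate cells in the lowest bin, below 0.5%, which belong to neither class. Cells just inside the limit (7.5 to 8%, 222 and 174 cells) had medians of 832 and 816.5 mitochondrial UMIs, and cells just outside it (7 to 7.5%, 298 and 175 cells) had 805.5 and 787. At the upper limit, the few cells at 14 to 15% (22 and 26 cells) had medians of 3120 and 6307 non-mitochondrial UMIs and those at 15 to 16% (15 and 18 cells) had 2463 and 2208. Above 15% the gate held 651 and 439 further cells, with median mitochondrial shares of 47.0% and 42.5% and medians of only 900 and 1033 non-mitochondrial UMIs.

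**Figure D1:**
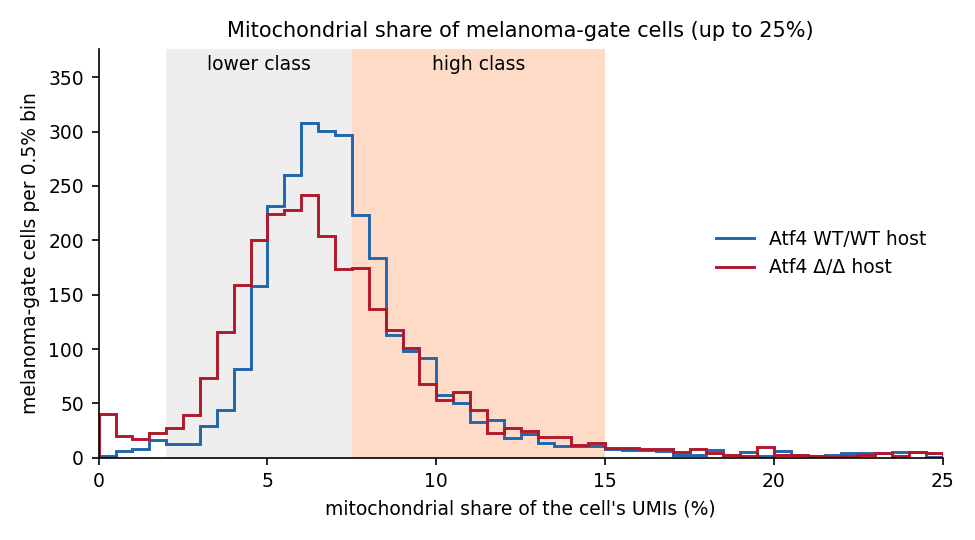
Number of melanoma-gate cells (y axis, cells per 0.5% bin) by the mitochondrial share of their UMIs (x axis, percent, shown up to 25%) in the Atf4 WT/WT (blue) and Atf4 Δ/Δ (red) host libraries, with the lower class (2 to 7.5%) shaded grey and the high class (7.5 to 15%) shaded orange. Both main peaks lie at 6 to 6.5% with a tail that passes the limit without a break, and the Atf4 Δ/Δ library has a small group of 40 cells below 0.5%.

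Members were well-sampled cells. Their median was 9076.5 non-mitochondrial UMIs in the Atf4 WT/WT library and 9242 in the Atf4 Δ/Δ library, which was 0.846 and 0.900 times the lower-class medians of 10730 and 10269. Mitochondrial UMIs per cell, one of the values that chose the members, had medians of 890 against 677.5 and 921 against 589, ratios of 1.31 and 1.56. Median detected genes were 2982.5 against 3315 and 3009 against 3237. By these medians the high class had both more mitochondrial UMIs per cell and somewhat fewer others than the lower class, in both libraries. The few cells at 14 to 15% had medians of 533.5 and 1084.5 mitochondrial UMIs, the first below the lower-class median of its library.

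The gate genes chose the cells, so their detection describes the selection. With each cell thinned to 2000 UMIs, which left out 78 and 57 shallower members and 180 and 65 Ptprc-positive cells, a UMI of Dct, which encodes dopachrome tautomerase of the melanin pathway, was found in 100% of members in either library, and Pmel, which encodes the fibril protein of melanosomes, in 94.4% and 84.1% (95.7% and 94.5% before thinning). The Ptprc-positive macrophage-gene cells gave 41.2% and 37.6% for Dct and 26.3% and 18.2% for Pmel at that depth (55.0% and 50.2%, and 35.7% and 29.4%, before thinning, at median depths of 2380 and 2643 UMIs against 9990 and 10219 in members). Pigment cell genes that the gate did not use separated the same cells. Tyr, which encodes tyrosinase, was at 284 and 231 CPM in members against 35.7 and 33.7 CPM in the macrophage-gene cells. Sox10, a transcription factor of the neural crest and melanocyte lineage, was at 158 and 145 CPM against 33.3 and 11.7 CPM. The label of melanoma cell therefore held on genes outside the gate.

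Markers of host cells were at low levels in the high class. Summed over each list, the 12 macrophage markers were at 273 and 128 CPM, the 10 fibroblast markers at 151 and 124 CPM, the 10 endothelial markers at 143 CPM in both libraries, and the 10 T and NK cell markers at 1.04 and 0.120 CPM. Cd3e, Gzmb and Cd8a were at 0 in the high class of both libraries. Haemoglobin and Alas2 UMIs of red cells differed between the libraries, with 3006 UMIs (346 CPM) in members of the Atf4 WT/WT library and 4 UMIs in those of the Atf4 Δ/Δ library. More than 10 host-marker UMIs were found in 47 and 29 members and in 80 and 61 lower-class cells. Doublets were not removed. Scrublet marked 30 and 16 members as doublets.

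The 13 mitochondrially encoded mRNAs, whose summed share chose the members, were all higher in the high class by that choice, but not all to the same extent. The ratios below use CPM of non-mitochondrial UMIs, so that the mitochondrial genes do not press down the other genes. The log2 ratio of the high to the lower class for their sum was 0.67 in the Atf4 WT/WT library and 0.87 in the Atf4 Δ/Δ library, and single genes ranged from 0.48 (mt-Nd6) to 0.74 (mt-Co2) and from 0.40 (mt-Nd6) to 0.99 (mt-Co2). As a share of all mitochondrial UMIs, mt-Co2, which encodes a core subunit of cytochrome c oxidase, went from 15.7% to 16.6% and from 16.5% to 17.9%. The most abundant, mt-Atp6 of ATP synthase, was at 23.4% against 23.8% and 25.8% against 26.7%. The single light-strand mRNA, mt-Nd6, was at 0.0334% against 0.0380% and 0.0294% against 0.0405%, log2 ratios of these shares of -0.18 and -0.46. mt-Nd3, a subunit of complex I, had share ratios of -0.05 and -0.23. mt-Atp8 and mt-Nd4l overlap mt-Atp6 and mt-Nd4 on shared transcripts, so their small counts are uncertain.

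Across the 9491 non-mitochondrial genes with at least 100 UMIs in each library over both classes, the median log2 ratio was 0.02 in the Atf4 WT/WT library and 0.0011 in the Atf4 Δ/Δ library, so the scaling left the typical gene level. Of these genes, 58 (0.611%) were at least 1.5-fold higher in the high class in both libraries and 25 (0.263%) at least 1.5-fold lower. Without a limit on size, 3661 (38.6%) were higher in both and 3235 (34.1%) lower in both. In 1 library alone, 203 genes passed 1.5-fold upward and 74 downward in Atf4 WT/WT, and 147 and 109 in Atf4 Δ/Δ. The counts of each gene list below are read against these shares. Including mitochondrial genes in the scaling lowered every log2 ratio by 0.05 and 0.06, and edgeR's TMM factors lowered them by 0.05 and 0.03.

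Nuclear genes for OXPHOS subunits were higher in the high class as a group, by a small amount that differed between the complexes. Of 76 counted genes, 63 were higher in both libraries and 1 was lower in both, where all genes gave 38.6% and 34.1%. None of the 76 reached 1.5-fold, in a list that leaves out the isoform Cox7a1 described below. Their summed level was 49359 CPM in the high and 43321 CPM in the lower class of the Atf4 WT/WT library, and 47716 against 41354 CPM in the Atf4 Δ/Δ library. The log2 ratios were 0.19 (0.18 to 0.19) and 0.21 (0.20 to 0.21), with medians over the genes of the list of 0.18 in each. These levels stood apart between classes in both libraries. Their size is not set against the mitochondrially encoded genes, whose ratios follow from the choice of members.

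The complexes differed in size but not in direction. Complex IV, cytochrome c oxidase, had the largest summed log2 ratios, 0.27 and 0.28, and all 11 of its counted genes were higher in both libraries. Cox4i1, a structural subunit, was at 1645 against 1260 CPM and 1573 against 1231 CPM, a log2 ratio of 0.38 (0.35 to 0.41) and 0.35 (0.32 to 0.38). Cox8a, another small structural subunit, was at 1623 against 1316 CPM and 1773 against 1471 CPM. Complex V, ATP synthase, had log2 ratios of 0.15 and 0.18 with 15 of 15 genes higher in both. Complex III had 0.19 and 0.21 with 7 of 9 higher in both, and complex I, NADH dehydrogenase, had 0.17 and 0.19 with 28 of 37 higher in both and none lower in both. The medians over the genes of the complex I list were 0.16 and 0.14. Ndufa4, its most abundant gene and placed there by its name, was at 2845 against 2419.8 CPM and 2509 against 2110.1 CPM. Ndufb9, the next, was at 1022 against 841 CPM and 1137 against 955 CPM. Complex II, the only complex without a mitochondrially encoded subunit, had the smallest ratios, 0.06 and 0.09, with 2 of 4 genes higher in both and 1 lower in both.

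The isoform Cox7a1, best known as the heart and muscle form of a cytochrome c oxidase subunit and lying on chromosome 7 (chr7:30184144-30186078, GRCm38, GENCODE vM21), was among the most raised of all genes. It was at 11.98 CPM (104 UMIs) against 3.58 CPM (66 UMIs) in the Atf4 WT/WT library and at 9.38 CPM (78 UMIs) against 3.97 CPM (69 UMIs) in the Atf4 Δ/Δ library. The log2 ratios were 1.74 (1.28 to 2.21) and 1.24 (0.75 to 1.73). The levels of both high classes were above those of both lower classes. It remained a rare transcript beside Cox4i1.

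Lists for the making, import and folding of mitochondrial proteins were not higher as the OXPHOS subunits were. Mitochondrial ribosomal proteins had summed log2 ratios of -0.05 and -0.02, and 17 of 77 counted genes were higher and 36 lower in both libraries. The import machinery was at -0.09 and -0.05 (4 higher and 14 lower of 21) and factors for transcription and translation of the mitochondrial genome at -0.09 and -0.07 (3 higher and 10 lower of 20). Chaperones and proteases of the organelle were lowest, at -0.21 and -0.18, with 10 of 14 lower and 1 higher in both. Hspd1, the HSP60 chaperonin of the mitochondrial matrix, was at 1683 against 2161 CPM and 1318 against 1661 CPM, log2 ratios of -0.36 and -0.33. Phb2, a prohibitin of the inner membrane, was at 589 against 733 CPM and 556 against 639.5 CPM. The opposite direction to OXPHOS subunits did not hold for all of these lists in cells under 0.2% of cell cycle UMIs (described below), where mitochondrial ribosomal proteins were at 0.05 in each library and import at 0.0036 and 0.05, while chaperones and proteases were at -0.12 and -0.10.

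Ppargc1a, the coactivator that promotes mitochondrial biogenesis and OXPHOS gene expression, was higher in the high class. Its level was 293 against 200.2 CPM in the Atf4 WT/WT library and 200.2 against 146 CPM in the Atf4 Δ/Δ library, log2 ratios of 0.55 (0.48 to 0.62) and 0.46 (0.37 to 0.55). It carried the sum of the list of biogenesis regulators (0.25 and 0.17), whose median went the other way (-0.08 and -0.02), with 2 of 9 counted genes higher and 4 lower in both. Myc was at 59.1 against 73.2 CPM and 33.2 against 34.5 CPM, and Nrf1, the nuclear respiratory factor, at 33.6 against 35.6 CPM and 27.3 against 36.4 CPM. The only other gene of this list that was higher in both libraries was Sirt3, a mitochondrial deacetylase named here after its values were seen, with log2 ratios of 0.25 and 0.08 whose intervals both included 0.

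Catabolic pathways that feed the respiratory chain were slightly higher under the main scaling. Fatty acid oxidation genes had log2 ratios of 0.11 and 0.14, with 12 of 16 higher and none lower in both libraries, among them Etfb, an electron transfer flavoprotein subunit, at 184 against 166 CPM and 234 against 207 CPM. Tricarboxylic acid cycle genes were at 0.06 and 0.07, with 9 of 16 higher and 2 lower in both. Scaling with mitochondrial genes moved every log2 ratio by -0.05 and -0.06, about the size of these values. Idh2, an abundant gene of that list, was at 379 against 383 CPM and 309 against 319 CPM. Genes of mitophagy and mitochondrial dynamics were at 0.19 and 0.14, with 12 of 17 higher and 2 lower, but at 0.02 and -0.06 in cells under 0.2% of cell cycle UMIs. No gene of these lists reached 1.5-fold. Gabarap, an autophagosome protein, was at 448 against 365 CPM and 503 against 444 CPM. Sqstm1 of the same list was at 271 against 275 CPM and 336 against 359 CPM.

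**Figure D2:**
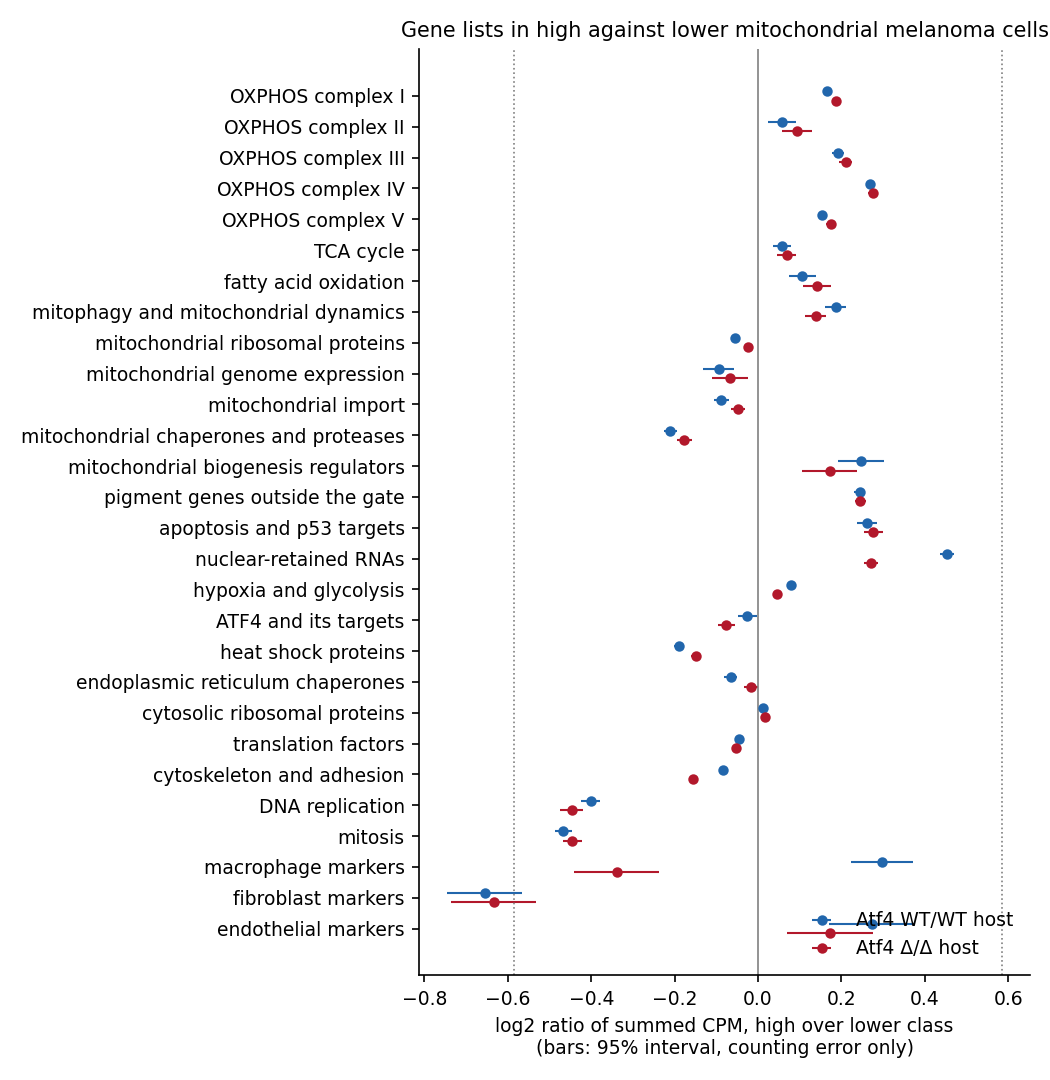
Log2 ratio of summed CPM in the high over the lower class (x axis) for 28 gene lists (y axis) in the Atf4 WT/WT (blue) and Atf4 Δ/Δ (red) host libraries, with bars for the 95% interval of counting error and dotted lines at 1.5-fold. OXPHOS complexes, pigment genes and p53 targets lie right of 0, DNA replication and mitosis lie left of it, and macrophage markers lie on opposite sides in the 2 libraries.

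Genes of DNA replication and mitosis were lower in the high class without exception. All 35 DNA replication genes and all 35 mitosis genes were lower in the high class in both libraries, where 34.1% of all genes were. The log2 ratios of the sums were -0.40 and -0.45 for replication and -0.47 and -0.45 for mitosis. The medians over the genes of each list were -0.37 and -0.46, and -0.48 and -0.40. Top2a, the topoisomerase that untangles replicated chromosomes, was at 249 against 376 CPM in the Atf4 WT/WT library and 184 against 286 CPM in the Atf4 Δ/Δ library, log2 ratios of -0.60 (-0.67 to -0.53) and -0.64 (-0.72 to -0.55). Birc5, the survivin subunit of the chromosomal passenger complex, was at 279 against 384 CPM and 249.9 against 319 CPM. Ube2c, the ubiquitin-conjugating enzyme of the anaphase-promoting complex, was at 219 against 296 CPM and 188 against 243 CPM. Of the replication genes, Rrm2, which encodes a ribonucleotide reductase subunit, was at 171 against 247 CPM and 130.0 against 178 CPM, and the helicase subunit Mcm3 was at 129 against 204.0 CPM and 108 against 160.3 CPM.

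Of the 12 genes that were lower by most in both libraries, 5 were cell cycle genes. E2f7, an E2F repressor, had the strongest of these (2.88 against 6.02 CPM and 2.04 against 5.30 CPM). Cdca2, Trip13, Fbxo5 and Prc1, with roles in chromosome dephosphorylation, the spindle checkpoint, inhibition of the anaphase-promoting complex and the central spindle, had log2 ratios between -0.90 and -0.71. Prc1, the best counted, was at 79.2 against 129.6 CPM and 72.0 against 118 CPM.

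The other genes of that 12 were Col6a3, Col6a1, Col3a1, Col1a2, Col5a1, Col5a2 and Bgn, matrix genes that are typical of fibroblasts. Col3a1 was at 25.8 against 60.8 CPM and 26.3 against 49.1 CPM. The fibroblast marker list moved with them, at 151 against 238 CPM and 124 against 192 CPM, log2 ratios of -0.66 and -0.63. Among cells with at most 10 host-marker UMIs, a limit chosen after seeing the data that kept 925 and 866 members, the list's ratios were -0.12 and -0.13. That limit counts the fibroblast markers themselves, so a smaller ratio follows in part from its construction. In cells under 0.2% of cell cycle UMIs the list was at -1.88 in the Atf4 WT/WT library and at 0.27 (0.08 to 0.47) in the Atf4 Δ/Δ library, with Col1a2 at -2.89 and 0.74, so the direction turned in the Atf4 Δ/Δ library. The source of the matrix transcripts was not tested.

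The promoter letters of the lists differed as follows. Among 31 mitosis genes with a RefSeq promoter window (250 bases before to 50 after the start, any annotated start), 25 held a CCAAT box and 24 the TTTGAA letters, and 21 (67.7%) held both, against 8.50% of the 19407 genes with a window. Of 28 replication genes, 10 (35.7%) held an E2F site in either of the forms TTTCCCGC and TTTGGCGC, on either strand, against 2.17% of all. The M-box letters were in 4 of 16 pigment genes outside the gate (25%) and in 3.67% of all. These letters describe the windows and say nothing of binding in these cells.

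Cells differed widely within the high class. The share of non-mitochondrial UMIs on the replication and mitosis lists had quartiles of 0.138%, 0.414% and 0.769% in members of the Atf4 WT/WT library, against 0.330%, 0.673% and 0.937% in the lower class. In the Atf4 Δ/Δ library they were 0.0938%, 0.273% and 0.649% against 0.181%, 0.492% and 0.802%. Cells with under 0.2% on these lists made up 31.7% of members (28.8 to 34.7) against 17.0% of the lower class (15.3 to 18.9) in the Atf4 WT/WT library, and 43.4% (40.1 to 46.7) against 27.4% (25.3 to 29.6) in the Atf4 Δ/Δ library. Most members therefore had cell cycle RNA above this limit, near which 105 and 86 of them lay.

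The nuclear OXPHOS share also spread more among members. In the Atf4 WT/WT library its 10th and 90th percentiles over cells were 3.38% and 5.92% of non-mitochondrial UMIs in the high class against 3.62% and 5.02% in the lower class, around medians of 4.80% and 4.31%. In the Atf4 Δ/Δ library they were 3.38% and 5.81% against 3.28% and 4.87%, around medians of 4.61% and 4.07%. The 90th percentile of members was thus above that of the lower class in both libraries, whereas the 10th percentile was below it in the Atf4 WT/WT library and above it in the Atf4 Δ/Δ library.

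p53 target genes were higher in the high class. Of 23 counted genes of apoptosis and p53 signalling, 15 were higher and 4 lower in both libraries, and the 4 that passed 1.5-fold were Cdkn1a, Ccng1, Trp53inp1 and Tnfrsf10b, against 0.611% of all genes. Cdkn1a, the p21 inhibitor of cyclin-dependent kinases (chr17:29090976-29100727), was at 304 against 149 CPM in the Atf4 WT/WT library and at 566 against 347 CPM in the Atf4 Δ/Δ library, log2 ratios of 1.03 (0.96 to 1.11) and 0.71 (0.65 to 0.76). The lower class of the Atf4 Δ/Δ library was thus above the high class of the Atf4 WT/WT library for this gene. Ccng1, cyclin G1, was at 149 against 76.6 CPM and 177 against 110.0 CPM, and Tnfrsf10b, a TRAIL receptor, at 7.72 against 3.91 CPM and 9.38 against 5.30 CPM. Both were named after their values were seen.

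Trp53inp1, a p53-induced nuclear protein, was at 46.9 against 17.9 CPM and 46.9 against 24.1 CPM, log2 ratios of 1.39 (1.18 to 1.61) and 0.96 (0.76 to 1.16). Trp53cor1, the p53-induced long noncoding RNA of the same chromosome as Cdkn1a (chr17:29057430-29079179, minus strand), was at 10.1 against 5.05 CPM and 13.7 against 7.60 CPM. Not all genes of the list differed by much. Cycs, cytochrome c, was at 804 against 787 CPM and 738 against 714 CPM, and Bax, the pore-forming apoptosis effector, at 476 against 408 CPM and 497 against 424 CPM. Mcl1, a survival factor, was at 130.4 against 151 CPM and 139 against 155 CPM (named after its values were seen).

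Of the 19407 genes with a promoter window, the paired ACATGT cores printed above for Cdkn1a, with 4 bases between them, were found in 1, Cdkn1a itself. Other letters or spacings of p53 elements, and sites outside the window, were not searched for. The count therefore does not show whether other p53 targets have such an element.

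Pigment genes outside the gate were higher as a sum, with log2 ratios of 0.24 in the Atf4 WT/WT library and 0.25 in the Atf4 Δ/Δ library (9241 against 7807 CPM and 8766 against 7395 CPM). The medians over the genes of the list were smaller, at 0.12 and 0.14. Ptgds alone gave 19825 of the list's 80204 UMIs in the high class of the Atf4 WT/WT library and 16882 of 72893 in the other. It is part of every later sum of this list. Of 19 counted genes, 14 were higher and 3 lower in both libraries, and Ptgds and S100b passed 1.5-fold. Ptgds, a prostaglandin D synthase, was at 2284 against 1476 CPM and 2030 against 1282 CPM, and S100b, a calcium-binding protein used as a melanoma marker, at 197 against 124 CPM and 199.98 against 121 CPM. Tyr was at 284 against 216 CPM and 231 against 169.8 CPM. Mitf itself was at 582 against 571 CPM and 345 against 374 CPM, and so differed little and in opposite directions in the 2 libraries (S100b, Tyr and Mitf were named after their values were seen). Of the gate genes, which chose the cells, Dct was at 7354 against 6024 CPM and 5761 against 5048 CPM, and Pmel at 2865 against 2743 CPM and 1973 against 1898 CPM.

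**Figure D3:**
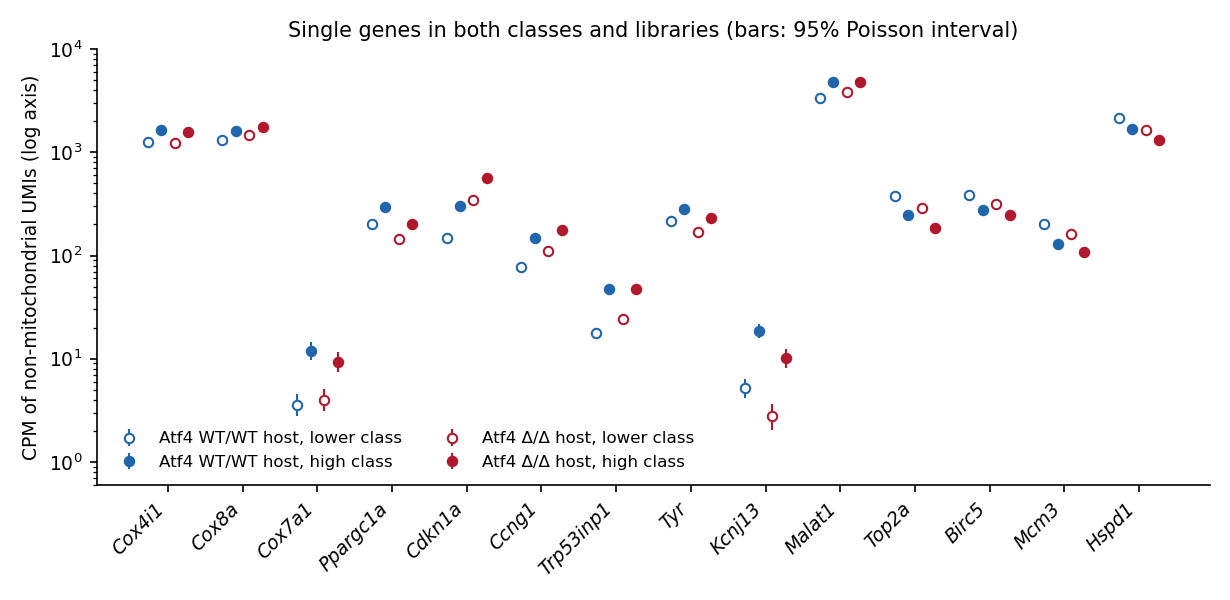
CPM of non-mitochondrial UMIs (y axis, log scale) of 14 genes (x axis) in the lower class (open) and high class (filled) of the Atf4 WT/WT (blue) and Atf4 Δ/Δ (red) host libraries, with bars for the 95% Poisson interval. In both libraries the filled points lie above the open ones from Cox4i1 to Malat1 and below them from Top2a to Hspd1.

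The gene that was higher by most in both libraries was Kcnj13, which encodes the inward rectifier potassium channel Kir7.1 (chr1:87386363-87394729, minus strand). It was at 18.7 CPM (162 UMIs) against 5.15 CPM (95 UMIs) and at 10.1 CPM (84 UMIs) against 2.76 CPM (48 UMIs), log2 ratios of 1.86 (1.48 to 2.24) and 1.87 (1.34 to 2.41). Both high classes were above both lower classes. The next largest included Thrsp, a lipogenic thyroid hormone-responsive protein, at 9.79 against 4.23 CPM and 9.02 against 3.97 CPM. Tnfrsf11b, which encodes osteoprotegerin, was at 6.11 against 3.15 CPM and 13.0 against 5.30 CPM. Mxd4, a MAX partner that opposes MYC, was the best counted of these genes, at 64.1 against 34.5 CPM and 72.5 against 38.5 CPM. The others of these 12, Gpr37, Dtna, Epha5, Trp53inp2 and Il18, had log2 ratios from 0.84 to 1.19.

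**Figure D4:**
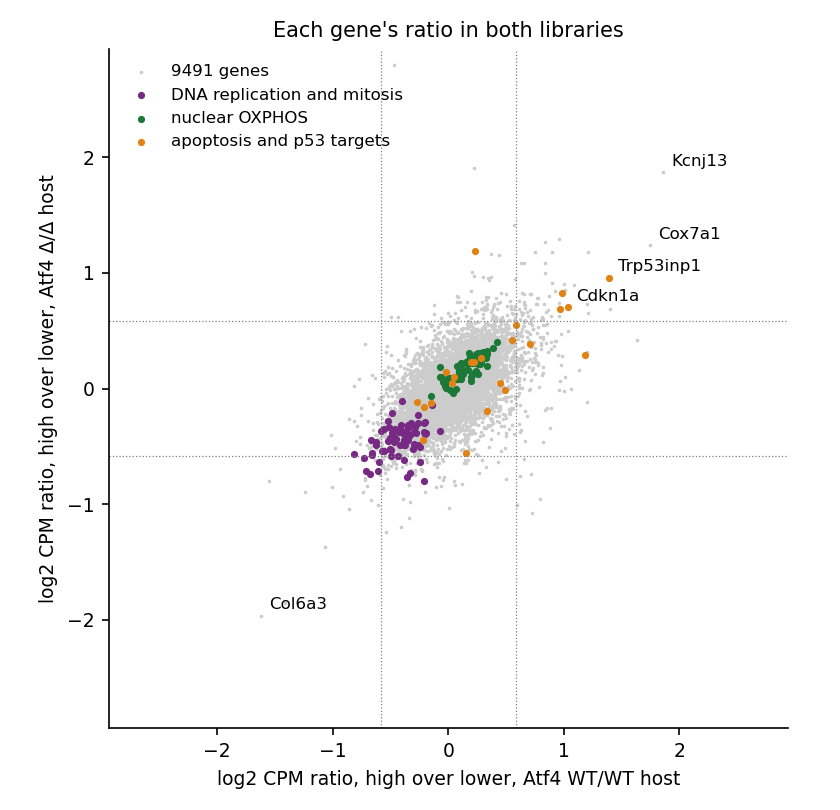
Log2 CPM ratio of the high over the lower class for each of 9491 genes in the Atf4 WT/WT (x axis) and Atf4 Δ/Δ (y axis) host libraries, with dotted lines at 1.5-fold. All genes of DNA replication and mitosis (purple) lie below 0 on both axes, nearly all nuclear OXPHOS genes (green) lie above 0 on at least 1 axis, and Kcnj13 lies at 1.86 and 1.87.

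Cytosolic ribosomal proteins were level between the classes. Their sum was at 226588 against 224834 CPM and 241527 against 238649 CPM, log2 ratios of 0.01 and 0.02, which turned to -0.04 and -0.05 when mitochondrial genes entered the scaling and to -0.04 and -0.01 with TMM factors. Translation factors were at -0.05 in each library with 20 of 30 lower and 3 higher in both. Npm1, a nucleolar ribosome assembly factor counted in that list, was at 2571 against 3134 CPM and 2510 against 3042 CPM. Chaperones of the cytosol were at -0.19 and -0.15 as a sum, led by Hsp90aa1 at 2846 against 3464 CPM and 2021 against 2376 CPM. Of 15 counted genes, 5 were higher and 7 lower in both libraries, where all genes gave 38.6% and 34.1%. In cells under 0.2% of cell cycle UMIs the sums were at -0.09 and -0.03. Hypoxia and glycolysis genes were at 0.08 and 0.04, with 21 of 29 higher and 1 lower in both, and the second value turned to -0.02 when mitochondrial genes entered the scaling. Pgk1 was at 2343 against 1997 CPM and 2244 against 1985 CPM, whereas Gapdh, the most abundant gene of the list, was at 4714 against 4728 CPM and 5601 against 5642 CPM.

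The remaining lists gave mixed values. ATF4 and its targets, the amino acid and stress genes of the integrated stress response, had log2 ratios of -0.03 and -0.08, with 8 of 29 counted genes higher and 13 lower in both libraries, and Eprs, a glutamyl-prolyl-tRNA synthetase, was at 334 against 371 CPM and 410.2 against 447 CPM. Endoplasmic reticulum chaperones were at -0.07 and -0.02 (4 higher and 6 lower of 18), immediate early genes at 0.11 and 0.09 (11 higher and 3 lower of 18, turning to -0.28 and -0.10 in cells under 0.2% of cell cycle UMIs) and antioxidant and iron genes at 0.03 and 0.02 (9 higher and 8 lower of 23). The antioxidant list turned below 0 when mitochondrial genes entered the scaling and with TMM factors. Genes of the cytoskeleton and adhesion were at -0.08 and -0.16, with 20 of 28 lower and 3 higher in both. Interferon-stimulated genes were at 0.19 and 0.00 (6 higher and 4 lower of 12). MHC class I presentation was at -0.04 and -0.00 as a sum, in which the abundant chaperone Calr counts, with 6 of 11 genes higher and 2 lower in both and H2-T23, a non-classical class I gene named after its values were seen, past 1.5-fold. The endothelial list was at 0.27 and 0.17, with 2 of 4 counted genes higher in both.

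Nuclear-retained RNAs, which stay in cells that lose cytoplasm, were higher as a sum, with log2 ratios of 0.45 and 0.27. The medians over the genes of the list were only 0.09 and -0.02. The sum was carried by Malat1, a long noncoding RNA of nuclear speckles, at 4763 against 3373 CPM and 4771 against 3844 CPM, log2 ratios of 0.50 (0.48 to 0.52) and 0.31 (0.29 to 0.33). Neat1, the paraspeckle RNA, was at 403 against 348 CPM and 411 against 427 CPM, and of 5 counted genes 3 were higher and 1 lower in both. RNAs with detained introns, another group that stays in the nucleus, were at 0.04 and -0.02. Whether loss of cytoplasmic RNA had a part in these values was not tested.

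Nuclear OXPHOS and pigment genes were higher in each successive bin of the mitochondrial share, except that OXPHOS genes in the Atf4 WT/WT library were lower in the last bin than in the one before it. From the lowest of 8 bins (2 to 4%) to the highest (ending at 15%), nuclear OXPHOS genes went from 40099 to 51628 CPM in the Atf4 WT/WT library and from 39007 to 55517 CPM in the Atf4 Δ/Δ library. Pigment genes outside the gate went from 7208 to 10426 CPM and from 7071 to 11444 CPM. Cell cycle genes and Cdkn1a did not follow the share below 6%. Mitosis genes were at 3465 CPM at 2 to 4% and 4306 CPM at 4 to 5% in the Atf4 WT/WT library, and replication genes went from 2227 CPM at 2 to 4% to 2774 CPM at 5 to 6% in the Atf4 Δ/Δ library. Cdkn1a went from 196 to 123 CPM between the bins of 2 to 4% and 5 to 6% in the Atf4 WT/WT library and was at 289 and 305 CPM in the Atf4 Δ/Δ library. From there upward, mitosis genes were at 4051 and 3056 CPM at 6 to 7.5%, 3005 and 2508 CPM at 7.5 to 9%, and 2087 and 1663 CPM in the highest bin. Cdkn1a was at 166 and 436 CPM, 252 and 441 CPM, and 327 and 797 CPM in the same bins. The steps between these bins did not all go the same way. In the bin that starts at 9%, mitosis genes were at 3140 and 2553 CPM, slightly above the bin before it in both libraries. Cdkn1a in the Atf4 WT/WT library was at 398 CPM in the bin before the highest, above its level in the highest. In the Atf4 Δ/Δ library Cdkn1a was higher in each successive bin from 6% upward. Cytosolic ribosomal proteins stayed between 223827 and 237799 CPM and between 234810 and 246771 CPM over all 8 bins. The bin of 2 to 4% departed from the trend in the Atf4 WT/WT library, with 99 cells, a median of 4928 non-mitochondrial UMIs, and Malat1 at 6094 CPM against 3459 CPM at 4 to 5%. The top bin held 69 and 89 cells, and Malat1 was there at 8096 and 6377 CPM.

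**Figure D5:**
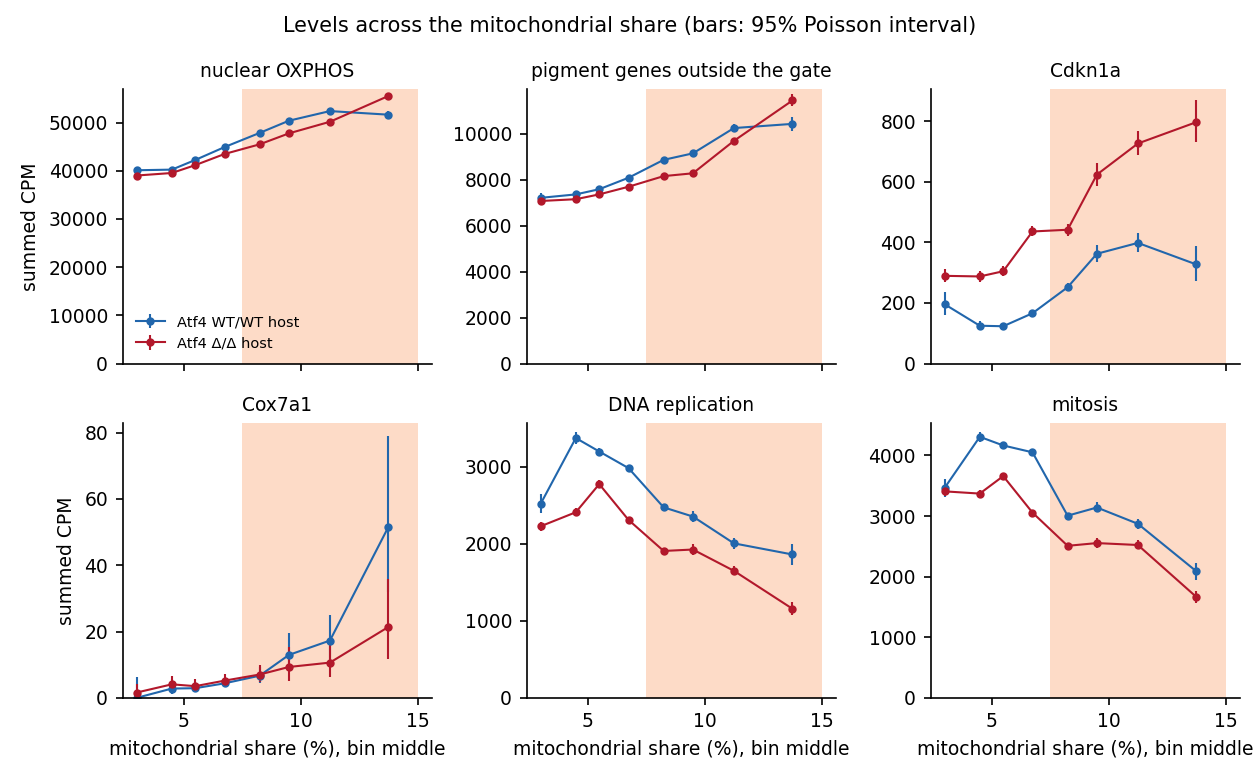
Summed CPM of non-mitochondrial UMIs (y axes) in 8 bins of the mitochondrial share (x axes, percent, bin middle) for 6 genes or gene lists in the Atf4 WT/WT (blue) and Atf4 Δ/Δ (red) host libraries, with bars for the 95% Poisson interval and the high class shaded. Nuclear OXPHOS genes, pigment genes, Cdkn1a and Cox7a1 are higher in the bin that starts at 10% than in that of 5 to 6%, and DNA replication and mitosis genes are lower.

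Since the classes differed in cell cycle RNA and in depth, the comparison was repeated in more alike cells. Among cells with under 0.2% of UMIs on the cell cycle lists (308 and 388 members against 296 and 462 lower-class cells, a limit chosen after seeing the data), median depths were 8365.5 against 8356 and 8707.5 against 8832.5 non-mitochondrial UMIs. There, DNA replication genes were at -0.06 (-0.16 to 0.05) and -0.15 (-0.23 to -0.07). Mitosis genes were at -0.05 (-0.19 to 0.09) and -0.22 (-0.33 to -0.10). The classes of the Atf4 Δ/Δ library thus still differed in cell cycle RNA. In the same cells, nuclear OXPHOS genes still had log2 ratios of 0.25 and 0.21, pigment genes outside the gate 0.36 and 0.31, and p53 targets 0.21 and 0.23. Cdkn1a was at 0.49 (0.36 to 0.62) and 0.45 (0.36 to 0.53), Ccng1 at 0.72 and 0.64, Ppargc1a at 0.55 and 0.48, Cox7a1 at 1.61 and 1.35, and Kcnj13 at 1.52 and 1.36. Cdkn1a thus kept its direction at a smaller size in both libraries, and the other 4 genes also kept theirs.

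Other values were not the same in those cells. Malat1 came to 0.24 and 0.07. Hypoxia and glycolysis genes turned to -0.18 and -0.16, mitochondrial ribosomal proteins to 0.05 in each, and ATF4 and its targets went from -0.03 and -0.08 to -0.32 and -0.25. Mxd4 came to 0.14 and 0.53 and Il18 to -0.02 and 1.16, so these 2 genes were not clearly higher in the Atf4 WT/WT library there. The same held for Tnfrsf11b (0.93, -0.17 to 2.13), and Epha5 (0.23 and 0.54) and Trp53cor1 (0.62 and 0.43) had intervals that included 0 in both libraries. Trp53inp1 was smaller, at 0.56 and 0.53. With lower-class cells matched to members on non-mitochondrial UMIs instead (median 9082 and 9231), nuclear OXPHOS genes were at 0.19 and 0.22, p53 targets at 0.25 and 0.33, DNA replication genes at -0.26 and -0.38 and mitosis genes at -0.30 and -0.39.

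Members of the 2 host genotypes differed in level, but genotype and library cannot be told apart. Between members of the Atf4 Δ/Δ and the Atf4 WT/WT library, the log2 ratio was -0.38 for DNA replication genes, -0.27 for mitosis genes, 0.21 for p53 targets, 0.30 for ATF4 and its targets and -0.05 for nuclear OXPHOS genes. In the lower class the same ratios were -0.33, -0.30, 0.20, 0.35 and -0.07. For these 5 lists the library difference was of like size in both classes. It was not for nuclear-retained RNAs (0.0017 in the high and 0.18 in the lower class), interferon-stimulated genes (-0.06 and 0.12), mitochondrially encoded genes (0.05 and -0.14) and macrophage markers (-1.09 and -0.45). The ratio of high to lower class was also compared, as the Atf4 Δ/Δ value minus the Atf4 WT/WT value. The difference was 0.02 for nuclear OXPHOS genes, 0.02 for mitosis genes, -0.05 for DNA replication genes and 0.01 for the sum of p53 targets. Single genes of the p53 list varied. Cdkn1a had ratios of 1.03 (Atf4 WT/WT) and 0.71 (Atf4 Δ/Δ) and Trp53inp1 of 1.39 and 0.96, whereas Bax had 0.22 and 0.23.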

How the data were processed

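Single-cell RNA from B16F10 tumours was sequenced by the submitters with 10x Genomics droplets, and the submitters' processing notes name Cell Ranger 3.1.0 and Seurat 3.2.1 with the GRCm38 genome. The authors deposited raw UMI counts per gene and barcode for each library, before the filter on mitochondrial reads, which were used as deposited. By the study's methods, Cell Ranger aligned the reads and counted them against Ensembl gene annotation, and Seurat was used on the resulting matrices. The annotation release is not given in the sources used here.

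Cells were classed by the rule given above, and the UMIs of each class and library were summed and scaled to CPM without mitochondrial genes. Log2 ratios carry exact conditional binomial intervals, levels exact Poisson intervals and shares Clopper-Pearson intervals, all at 95% and for counting error only. UMIs of 1 library are not replicates, and no p-value is given. A count of 0 was set to 3 in a ratio. Counts of genes used those with at least 100 UMIs in each library, and list medians those with at least 20. Ptprc-positive macrophage-gene cells had at least 20 UMIs summed over C1qa, C1qb, C1qc, Lyz2 and Tyrobp. The genes named were the 12 with the largest ratio shared by both libraries in each direction, the 3 members of each list with most UMIs, the mitochondrial genes and the gate genes, and others are marked where they occur. The members and the lists were chosen with earlier results of these data known. For 2 listed symbols that occur at 2 identifiers, the one with more UMIs was used. Gene positions are from GENCODE vM21 and promoters from RefSeq.

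Alternatives were another gate, other class limits, no upper limit on genes, Scrublet doublets left out, lower-class cells matched on depth, 3 other scalings, an assumed 5% of free RNA and a lower count minimum. The limits on cell cycle UMIs and on host-marker UMIs were added after seeing the data. Python 3.11.15, scipy 1.17.1, scanpy 1.11.5, R 4.3.3 and edgeR 4.0.16 (TMM factors only) were used, and the scripts were tested on simulated data.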

Additional observations from a re-analysis of the deposited data

Results flagged for a closer look

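The macrophage marker list went in opposite directions in the 2 libraries. Its log2 ratio of the high to the lower class was 0.30 (0.22 to 0.37) in the Atf4 WT/WT library (273 against 222 CPM) and -0.34 (-0.44 to -0.24) in the Atf4 Δ/Δ library (128 against 162 CPM), a difference of -0.64. The difference is between 1 library of each genotype and was not tested over replicates. Of the 10 counted markers, 1 was higher and 2 were lower in both libraries, and Lyz2, the most abundant, was at 101 and 40.4 CPM in members. With lower-class cells matched on depth the ratios were 0.04 (-0.04 to 0.13) and -0.60 (-0.71 to -0.49). The first interval then included 0, while the 2 libraries stayed apart. In cells under 0.2% of cell cycle UMIs the ratios were -0.09 (-0.23 to 0.06) and -0.31 (-0.48 to -0.15), so the opposite direction did not hold in those cells. Among cells with at most 10 host-marker UMIs, a limit that counts these markers themselves, the ratios were -0.05 and -0.07.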

How the results depend on the processing

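No paired analysis was possible because the genotypes had only 1 library each. The classes were compared within each library, and no fit across both libraries, which differ in genotype, was run. Values are log2 ratios of the high to the lower class, Atf4 WT/WT before Atf4 Δ/Δ, and the cause of a shift was not tested. A gap between the classes (10 to 15% against 2 to 5%) gave nuclear OXPHOS 0.38 and 0.39, nuclear-retained RNAs 0.50 and 0.41, hypoxia and glycolysis -0.013 and -0.0061, ribosomal proteins -0.00096 and -0.0065, immediate early genes -0.058 (mean of both libraries), and 119 genes higher and 122 lower by 1.5-fold, against 58 and 25, of which they share only 19 and 9. A gate of 1% gave OXPHOS 0.20 and 0.23, nuclear-retained RNAs 0.48 and 0.30, ribosomal proteins 0.014 and 0.012, and hypoxia 0.0062 (Atf4 Δ/Δ). With that gate MHC class I was at 0.012 (mean) and the share of members at 36.4% (Atf4 Δ/Δ). It gave 34 genes higher and 32 lower, 24 and 8 of them among the 58 and 25. Scaling with mitochondrial genes gave OXPHOS 0.14 and 0.14, nuclear-retained RNAs 0.40 and 0.21, ribosomal proteins -0.039 and -0.046, hypoxia 0.028 and -0.018, antioxidant genes -0.033 (mean) and 45 genes lower. TMM factors gave OXPHOS 0.13 and 0.18, nuclear-retained RNAs 0.40 and 0.24, ribosomal proteins -0.043 and -0.0091, hypoxia 0.024 and 0.018, antioxidant genes -0.017 (mean) and 39 genes lower. Scaling without ribosomal protein genes gave ribosomal proteins 0.014 and 0.023. Matching on depth gave OXPHOS 0.22 (Atf4 Δ/Δ), nuclear-retained RNAs 0.38 and 0.21, ribosomal proteins -0.00033 and 0.0060, hypoxia 0.026 and 0.023, and 34 genes higher and 7 lower, 28 and 4 of them among the 58 and 25. Subtracting 5% of free RNA gave OXPHOS 0.20 and 0.22 and nuclear-retained RNAs 0.48 and 0.29. Leaving out Scrublet doublets gave 16 genes lower, and a minimum of 20 UMIs gave 184 higher and 59 lower. Members were 28.6% and 28.7% of gate cells with no upper mitochondrial limit, and 9.59% and 11.1% when counted from 10%.

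In cells under 0.2% cell cycle UMIs, a limit chosen after seeing the data, OXPHOS came to 0.25 (Atf4 WT/WT), nuclear-retained RNAs to 0.23 and 0.055, ribosomal proteins to -0.046 and -0.015, and hypoxia to -0.18 and -0.16. There 14 genes were higher and 3 lower by 1.5-fold, 7 and 0 of them among the 58 and 25. Means of both libraries turned for immediate early genes (-0.19), mitochondrial ribosomal proteins (0.052), import (0.026), mitophagy (-0.019), antioxidant genes (-0.044), Trip13 (0.056) and Prc1 (0.031). In cells with at most 10 host-marker UMIs, also chosen after seeing the data, 13 genes were lower, ribosomal proteins were at 0.015 (Atf4 WT/WT) and Bgn turned to 0.14 (mean). Nuclear OXPHOS genes kept their direction in both libraries under every alternative run. Named genes with few UMIs, such as Kcnj13 and Cox7a1, are limited by depth.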
